A study of Mus musculus with 5 samples.

Results

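REST binding was examined at 9 genes that carry transmitters into vesicles or move ions across the membrane of neurons. The genes were listed by name: Slc17a6, Slc17a7, Slc17a8, Slc18a1, Slc18a2, Slc32a1, Slc6a17, Slc12a5 and Slc8a2, of 22367 protein-coding genes in the annotation. A called peak was given to a gene when it lay in the gene body or within 50 kb of its start on the mm9 build. By this rule the 9 genes held 9 of the 1860 sites of the series, where a site joins the overlapping peaks of different libraries.

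REST is a zinc-finger repressor that binds a long DNA element, RE1, made of a left and a right half-site, and holds neuronal genes silent in cells that are not neurons. Pancreatic endocrine cells share much of their secretory machinery with neurons and, like them, lack REST. Of the genes described here, Slc17a7, Slc17a6 and Slc17a8 encode the vesicular glutamate transporters VGLUT1, VGLUT2 and VGLUT3. Slc18a1 and Slc18a2 encode the vesicular monoamine transporters VMAT1 and VMAT2, which load dopamine, noradrenaline and serotonin, and Slc32a1 encodes VGAT, which loads GABA and glycine. Slc6a17 encodes NTT4, a vesicular transporter of neutral amino acids. Slc12a5 encodes the potassium-chloride cotransporter KCC2, which keeps chloride low in mature neurons, and Slc8a2 encodes the sodium-calcium exchanger NCX2, found mainly in brain.

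Chromatin came from whole pancreas of wild-type, untreated mouse embryos of a mixed strain with C57BL/6 and was precipitated with the mouse monoclonal antibody 12C11. There were 3 libraries from E18.5, each a pool of 3 to 4 pancreases, and 2 libraries from E13.5, each a pool of 4 to 6. Both stages mix epithelium with other cells, so a site cannot be placed in a cell type, and peak lists hold no marker by which the tissue could be checked. Samples are named by stage and letter. The series labels them as biological replicates.

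The lists held 541, 417 and 226 peaks in E18.5 A, B and C, against 1400 and 1333 in E13.5 A and B. The number of reads behind each list is unknown, so a site without a peak was not called and cannot be said to be unbound. Peak scores have no stated unit and were turned into percentiles within a library, with 100 for the top score. A site was counted as reproducible at E18.5 when called in at least 2 of the 3 libraries and at E13.5 when called in both.

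The sequences under the peaks are shown first because they set the sites of these genes apart from one another. RE1 was searched on both strands as TTCAGCACC and GGACAGCGC with 2 bases between them and at most 4 mismatches over the 18 letters, in 500 bp centred on each site. Here and below, the centre of a site is the mean of the centres of its E13.5 peaks. It can differ from the middle of the printed site, which spans the peaks of all libraries. Sites called in both E13.5 libraries outside the windows of the 9 genes gave 837 matches, and the commonest letters of these matches formed the consensus that heads the list. In every sequence, capitals mark letters identical to the half-sites, and each is written 5′ to 3′ on the strand of the element with the mm9 position of the printed bases. The element of Slc17a6 has shorter flanks because it lies in a UTR.
consensus: TTCAGCACCatGGACAGCGCc
Slc8a2 site 1, chr7:16733159-16733209, plus strand: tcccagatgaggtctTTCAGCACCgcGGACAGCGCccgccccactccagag
Slc12a5 site 1, chr2:164792055-164792105, minus strand: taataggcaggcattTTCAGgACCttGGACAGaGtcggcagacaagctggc
Slc12a5 site 2, chr2:164794134-164794184, minus strand: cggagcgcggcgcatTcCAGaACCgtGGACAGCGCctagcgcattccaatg
Slc12a5 site 3, chr2:164805420-164805470, minus strand: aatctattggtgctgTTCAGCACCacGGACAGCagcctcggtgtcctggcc
Slc32a1 site 1, chr2:158396260-158396310, minus strand: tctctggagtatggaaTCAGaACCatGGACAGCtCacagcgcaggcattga
Slc32a1 site 2, chr2:158410508-158410558, minus strand: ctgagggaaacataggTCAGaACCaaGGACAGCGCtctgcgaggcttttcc
Slc17a6 site 1, chr7:58877226-58877254, minus strand: gcatTTCAGgACCacGGACAGaGgaagct
Slc18a1 site 1, chr8:71612454-71612504, plus strand: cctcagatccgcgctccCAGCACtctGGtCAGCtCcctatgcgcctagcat

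Slc8a2 carried both half-sites with 0 mismatches. Slc12a5 carried 3 elements, with 3, 2 and 2 mismatches in the order of their sites, and Slc32a1 carried 2, with 3 and 2. The element of Slc17a6 had 3 mismatches. The best match at Slc18a1 had 5 and did not count as a match. Thus 7 of the 8 reproducible E13.5 sites of these genes held RE1 (87.5%, exact 95% binomial interval 47.3 to 99.7, which here and below covers counting error only). The share was 71.2% at the 1175 other reproducible E13.5 sites, which leave out 3 on unplaced sequence, and 0.596% in windows of the same length taken 10 kb away from those sites.

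The 7 matched elements had the same letters at positions 3 to 5, 7 to 9 and 12 to 17, counted from 1 at the 5′ end of the left half-site, in 7 of 7 cases. These letters were also the usual ones elsewhere, at 84.2% to 99.9% of the 837 other elements by position. The 7 elements matched the half-sites least often at position 6, the letter after TTCAG. There 3 elements had A, 2 had G and 2 had C, whereas C stood at this position in 67% of the 837 elements elsewhere. At the 3′ end, positions 18, 19 and 20 matched the half-site in 5, 5 and 4 of the 7 elements. The half-site letters stood there in 68.9%, 48.3% and 64% of the 837 elements elsewhere. Elements of 1 gene were not copies of one another. The 3 elements of Slc12a5 shared 14 or 15 of 20 bases with each other, while site 3 of Slc12a5 shared 17 of 20 with the element of Slc8a2 and with that of Slc17a6. The 2 elements of Slc32a1 shared 17 of 20. The element ran on the strand opposite to the gene in every matched case other than Slc8a2. Most of these cases came from Slc12a5 and Slc32a1, and there is no share of other sites to set beside them. Peak centres lay close to the elements. The median distance between peak centre and element was 31.5 bp (range 2 to 95.5, 7 peaks) at E18.5 and 9.75 bp (range 0 to 24.5, 14 peaks) at E13.5. The search was centred on the E13.5 peaks, so these distances do not compare the stages.

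Of the 9 genes, Slc12a5 had a reproducible E18.5 site, and 5 had a reproducible E13.5 site: Slc17a6, Slc18a1, Slc32a1, Slc12a5 and Slc8a2. The share was 11.1% at E18.5 (1 of 9, interval 0.281 to 48.2) and 55.6% at E13.5 (5 of 9, interval 21.2 to 86.3). By the same rule, 2.20% of all protein-coding genes had a reproducible E18.5 site and 6.90% a reproducible E13.5 site. The 9 genes were picked with the peaks known, so these shares are a description and the intervals do not test the difference from all genes. The window was 100 kb at the median for the 9 genes and for all genes alike, but the gene bodies were longer at the median (38.9 kb, against 15.4 kb for all genes). The E18.5 count rested on libraries A and C and was 0 without either of them. With 5 kb around the start as the window, 0 genes remained at E18.5 and 2 at E13.5, Slc17a6 and Slc18a1. The other sites lay 5.77 kb or more from the outermost start of their gene. Starts of other transcripts did not count in that window, and the sites of Slc12a5 lay closer to such starts, as given below. The shares of all genes in that window were 0.604% at E18.5 and 1.56% at E13.5.

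**Figure D1:**
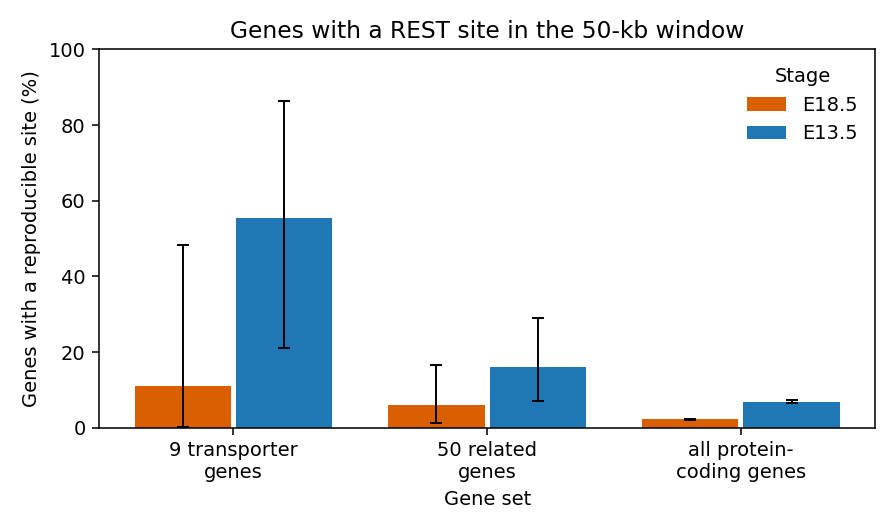
Bars show the share of genes (%) with a reproducible REST site in the window, at E18.5 and E13.5, for the 9 transporter genes, 50 related genes and all protein-coding genes, with exact 95% binomial intervals as error bars. The 9 genes reached 11.1% at E18.5 and 55.6% at E13.5, against 2.20% and 6.90% of all genes. They were picked with the peaks known, so the intervals do not test this difference.

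Slc12a5, the KCC2 gene (chr2:164786316-164825228, plus strand), was the member with the most reproducible sites. Its 3 reproducible E13.5 sites all lay inside the gene body, 5.77, 7.85 and 19.1 kb downstream of the start, with 2.08 kb between sites 1 and 2 and 11.3 kb between sites 2 and 3. Such a number was reached by 43 protein-coding genes in all (0.192%). All 3 elements were intronic. Sites 2 and 3 also overlapped coding exons, and the centre of site 2 was 426 bp downstream of the start of another transcript of the gene.

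Site 2 of Slc12a5 (chr2:164793873-164794446) had scores of 13 in E18.5 A and 9 in E18.5 C and was not called in E18.5 B, and it had 27 and 33 in E13.5 A and B. Its percentiles were 89.4 and 27.0 in E18.5 A and C, against 86.9 and 87.3 in E13.5 A and B. It therefore stood high in E18.5 A and in both E13.5 libraries, but in the lower part of the short E18.5 C list. Site 3 (chr2:164805147-164805681) was called in the same 4 libraries, and its percentiles there were 70.2 in E18.5 A, 14.4 in E18.5 C, 54.8 in E13.5 A and 49.3 in E13.5 B. Site 1 (chr2:164791845-164792333) was called at a percentile of 27.0 in E18.5 C and of 66.0 and 75.7 in E13.5 A and B. The order of the sites was thus 2, 1, 3 in both E13.5 libraries, but sites 1 and 2 were tied in E18.5 C and site 3 stood above site 1 in E18.5 A, where site 1 was not called. The number of mismatches did not follow this order, since sites 2 and 3 both had 2.

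Slc8a2, the NCX2 gene (chr7:16715509-16745858, plus strand), had a single site in an intron 17.7 kb downstream of the start (chr7:16732930-16733442). It was called with a score of 7 in E18.5 A and was not called in E18.5 B and C, and it had scores of 29 and 32 in E13.5 A and B. The percentiles were 61.3 in E18.5 A, and 89.8 and 85.9 in E13.5 A and B. With a mean E13.5 percentile of 87.84 it ranked highest of the sites in these windows, just above site 2 of Slc12a5 at 87.11, and the difference between them was smaller than the difference between the E13.5 libraries at Slc8a2. Matches to both half-sites without a mismatch were rare, with 16 in the genome, of which 15 were in sites called in both E13.5 libraries. Those 15 sites had a median mean percentile of 82.14 at E13.5, 14 were called in at least 1 E18.5 library and 10 in at least 2. The Slc8a2 site belonged to the 14 and not to the 10.

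Another site, called in more E18.5 libraries, lay just beyond the window of Slc8a2. It was 53.7 kb from the start (chr7:16768961-16769518), was called in 2 E18.5 and both E13.5 libraries at mean percentiles of 42.31 at E18.5 and 85.8 at E13.5, and had 1 mismatch. The nearest start was that of Meis3, a homeobox gene. The farthest site inside any window was site 1 of Slc32a1 at 40.2 kb. With a window of 100 kb, Slc8a2 would join Slc12a5 as a gene with a reproducible E18.5 site.

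Slc32a1, the VGAT gene (chr2:158436494-158441484, plus strand), is short, and all its sites lay upstream, with no start of another gene closer to them. Site 1 (chr2:158396029-158396520), 40.2 kb upstream, had a score of 9 in E18.5 C, a percentile of 27.0, and was not called in E18.5 A and B. Its E13.5 percentiles differed widely between the libraries, at 39.7 in A and 73.7 in B. Site 2 (chr2:158410268-158410796), 26 kb upstream, was called in 0 of 3 E18.5 libraries and at percentiles of 77.6 and 71.1 in E13.5 A and B. Site 2 thus ranked above site 1 in E13.5 A and slightly below it in E13.5 B, and site 1 had the E18.5 call. One more peak, 15.5 kb upstream (chr2:158420936-158421068), was called in E13.5 A alone, with a score of 9 and a percentile of 21.6, and its best match to RE1 had 7 mismatches. Sites 1 and 2 were 14.3 kb apart.

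Slc17a6, the VGLUT2 gene (chr7:58877200-58926495, plus strand), had its site at the start itself. The centre of the site (chr7:58876957-58877492) was 37 bp downstream of the start, and the element lay in the UTR of the first exon. It was called in 0 of 3 E18.5 libraries. In E13.5 A it had a score of 21 and rank 354 of 1400 (percentile 74.8), and in E13.5 B a score of 24 and rank 386 of 1333 (percentile 71.1). These ranks lay in the upper part of both E13.5 lists. The 2 other vesicular glutamate transporter genes had no peak in any library. The peak nearest to the start of Slc17a7 was 394 kb away in each E18.5 library, and 202 and 394 kb away in E13.5 A and B. For Slc17a8 the nearest peak was 730, 1260 and 9900 kb away in E18.5 A, B and C, and 397 kb away in both E13.5 libraries. Their windows held no match to RE1, and the best had 5 mismatches in both.

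Slc18a1, the VMAT1 gene (chr8:71561610-71613134, minus strand), had an intronic site centred 669 bp into the gene (chr8:71612193-71612649). The site also overlapped Atp6v1b2, which encodes a subunit of the vacuolar proton pump, and the start of Atp6v1b2 was closer, at 80 bp. The peak therefore cannot be given to VMAT1 over its neighbour. It had a score of 5 and a percentile of 29.5 in E18.5 B, where it was the single peak of the 9 genes, and it was not called in E18.5 A and C. In E13.5 A and B its scores were 18 and 17 and its percentiles 66.0 and 49.3. Neither half-site was found here with at most 1 mismatch, whereas the score of a 21-base letter matrix built from the 837 elements elsewhere was 17.18 bits, above the limit of 8.037 bits that 1% of the windows 10 kb away passed. The other sites with an element scored between 25.75 bits at Slc17a6 and 32.35 bits at Slc8a2. The related gene Slc18a2 had no peak in its window, and the nearest peak was 12200, 3080 and 12200 kb away in E18.5 A, B and C and 1210 kb away in both E13.5 libraries.

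Slc6a17, the NTT4 gene (chr3:107270461-107320936, minus strand), had no peak in its window either. The nearest was 697, 697 and 19300 kb away in E18.5 A, B and C, and 555 and 346 kb away in E13.5 A and B. The windows of Slc18a2 and Slc6a17 each held 1 match with 4 mismatches. The genes without a site were thus 2 of the 3 vesicular glutamate transporter genes, 1 of the 2 vesicular monoamine transporter genes and the amino acid transporter gene.

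**Figure D2:**
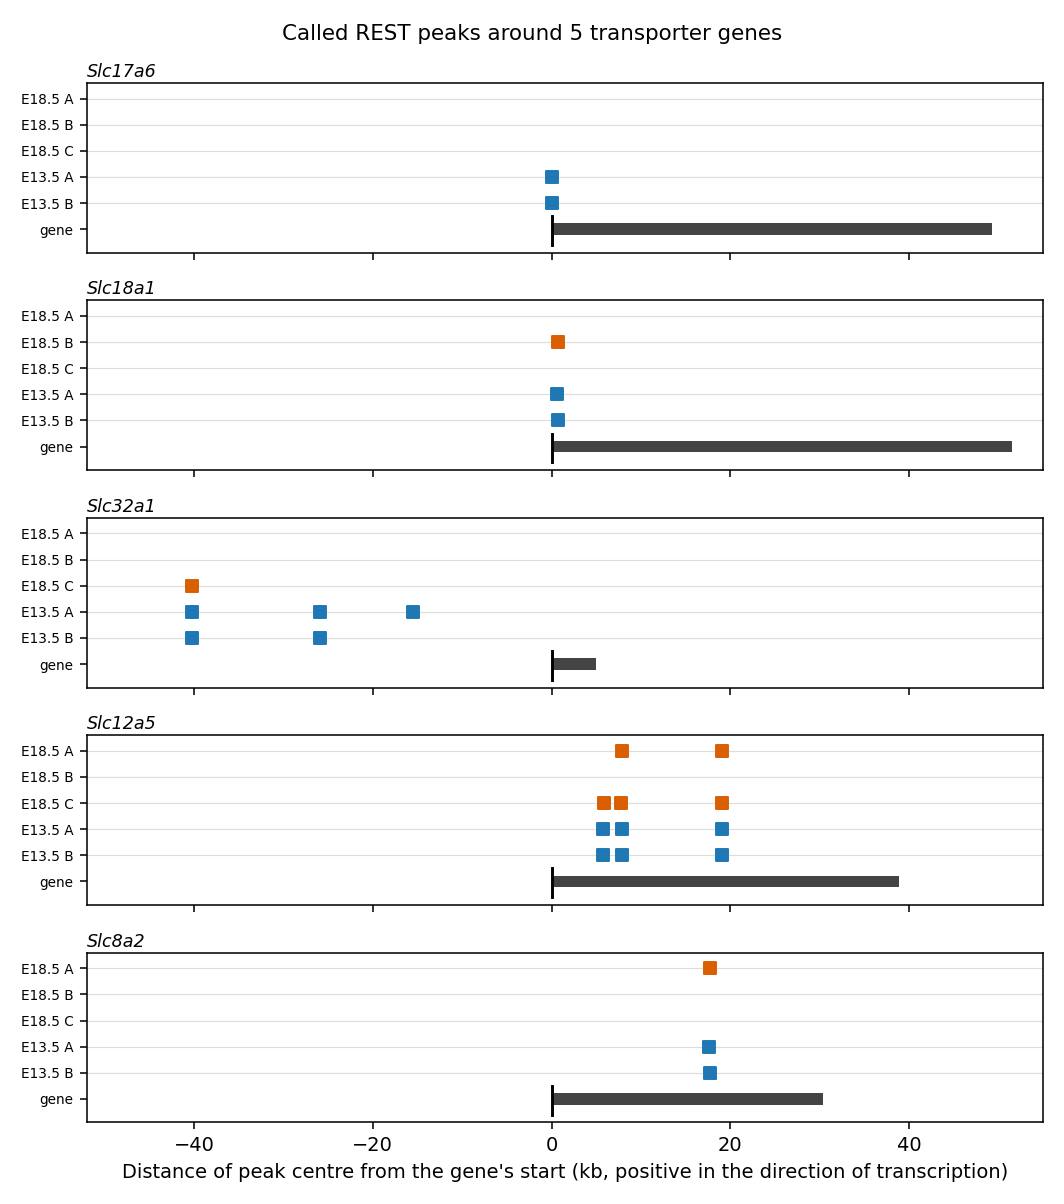
Each panel shows 1 gene with called peaks as squares by library (rows, E18.5 in orange above E13.5 in blue) against distance from the gene's start in kb, positive in the direction of transcription, with the gene body as a dark bar. Peaks of different libraries were joined where they overlapped, so shared peaks stand at like positions by construction. They lay inside the gene body at Slc12a5 and Slc8a2, near the start at Slc17a6 and Slc18a1, and 26 and 40.2 kb upstream at Slc32a1. The peak 15.5 kb upstream of Slc32a1 was called in E13.5 A alone. Peaks at Slc17a6 and 26 kb upstream of Slc32a1 were called in the E13.5 libraries only.

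Elements were then counted over the whole of each window, with and without a peak. Matches with at most 3 mismatches numbered 7 in the 9 windows, and 7 of 7 lay in a site called in both E13.5 libraries (100%). In the whole genome 740 of 2140 such matches did (34.6%). Matches with 4 mismatches numbered 8 in the windows, and 0 of 8 lay in a peak: 2 each at Slc32a1 and Slc12a5 and 1 each at Slc18a1, Slc18a2, Slc6a17 and Slc8a2. Genome-wide the share of matches in a reproducible E18.5 site was 62.5%, 28.7%, 17.7%, 3.92% and 0.412% for 0, 1, 2, 3 and 4 mismatches. The share in both E13.5 libraries was 93.8%, 86.8%, 62.8%, 20.9% and 1.59%. The elements with 3 mismatches at Slc17a6, Slc12a5 and Slc32a1 thus belonged to a class of which most matches in the genome carried no peak. No test was made of this, since the genes were picked with the peaks known.

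**Figure D3:**
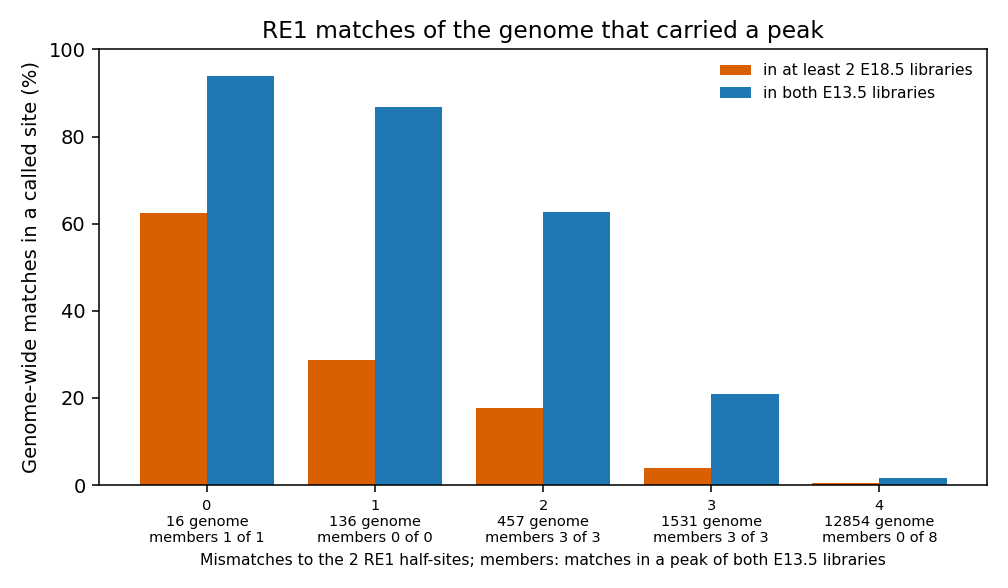
Bars show the percentage of RE1 matches in the genome that lay in a site of at least 2 E18.5 libraries (orange) or of both E13.5 libraries (blue), by the number of mismatches, with the number of genome matches and the members' count under each pair. Of the matches in the 9 windows, 1 of 1, 3 of 3 and 3 of 3 with 0, 2 and 3 mismatches were in both E13.5 libraries, and 0 of 8 with 4 mismatches.

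The 8 reproducible E13.5 sites of these genes had mean E13.5 percentiles between 52.04, at site 3 of Slc12a5, and 87.84, at Slc8a2. Their median was 71.91, and it was 54.36 over all 1186 reproducible E13.5 sites. None of the 8 lay in the lower 2 of 5 equal classes of rank. Taking the best site of each of the 5 genes, the median was 74.36. At other sites the median percentile was 81.23, 70.16, 59.76 and 51.37 for 0, 1, 2 and 3 mismatches. Against these, the sites of Slc8a2 (0 mismatches), of Slc12a5 site 2 and Slc32a1 site 2 (2 mismatches), and of Slc17a6, Slc12a5 site 1 and Slc32a1 site 1 (3 mismatches) were above the median of their class. The Slc18a1 site, with 5 mismatches, had 57.68, against a median of 45.48 for its class. Site 3 of Slc12a5 was below the median of its class, at 52.04 against 59.76, although its element had the second highest matrix score, 31.34 bits.

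**Figure D4:**
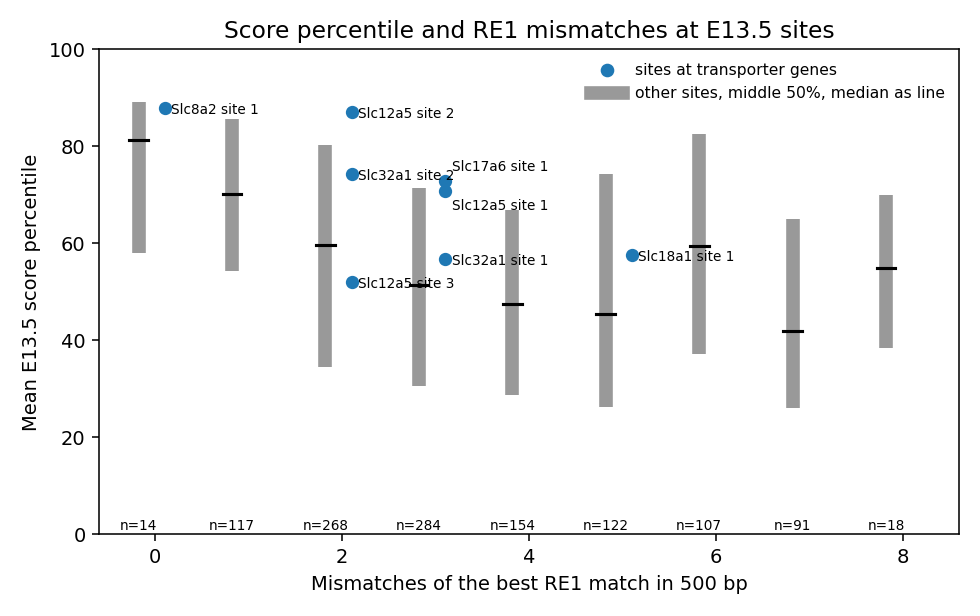
The mean E13.5 score percentile of each reproducible E13.5 site of the transporter genes (blue points) is plotted against the mismatches of its best RE1 match, beside the middle 50% (grey) and median (black line) of the other sites with the same number of mismatches. Of the 7 sites with an element, 6 lay above the median of their class, and site 3 of Slc12a5 lay below it.

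Each E18.5 library held peaks at fewer of the 9 genes than each E13.5 library. Peaks were called at 2, 1 and 2 genes in E18.5 A, B and C, and at 5 and 5 genes in E13.5 A and B. In all genes, a peak in the window was found for 3.29%, 3.06% and 1.97% in E18.5 A, B and C, and for 7.86% and 7.57% in E13.5 A and B. The mean was 1.667 ± 0.577 genes at E18.5 (SD, n = 3) and 5 ± 0 at E13.5 (SD, n = 2), a difference of -3.33 (exact two-sided permutation test, p = 0.2, the smallest that 10 arrangements allow). The 9 windows held 3, 1 and 4 peaks in E18.5 A, B and C, and 9 and 8 in E13.5 A and B, a difference in means of -5.83 (exact permutation p = 0.2). The groups did not overlap in either count.

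The lists as a whole differed in the same direction, with 394.7 ± 158.7 peaks at E18.5 (SD, n = 3) and 1366.5 ± 47.4 at E13.5 (SD, n = 2), so the peaks of these genes were also taken as a share of each list. That share was 0.555%, 0.24% and 1.77% in E18.5 A, B and C, against 0.643% and 0.6% in E13.5 A and B. The E18.5 values lay on both sides of the E13.5 values. When each list was limited to its 226 highest peaks, the number in the shortest list, the windows held 3, 0 and 4 peaks in E18.5 A, B and C, against 2 and 2 in E13.5 A and B, and the difference was 0.333 with the sign turned round (exact permutation p = 1). The part of list length in the stage difference was not tested beyond this. Within these limited lists, E18.5 A and both E13.5 libraries held Slc12a5 and Slc8a2, E18.5 C held Slc32a1 and Slc12a5, and E18.5 B held none of the 9 genes.

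**Figure D5:**
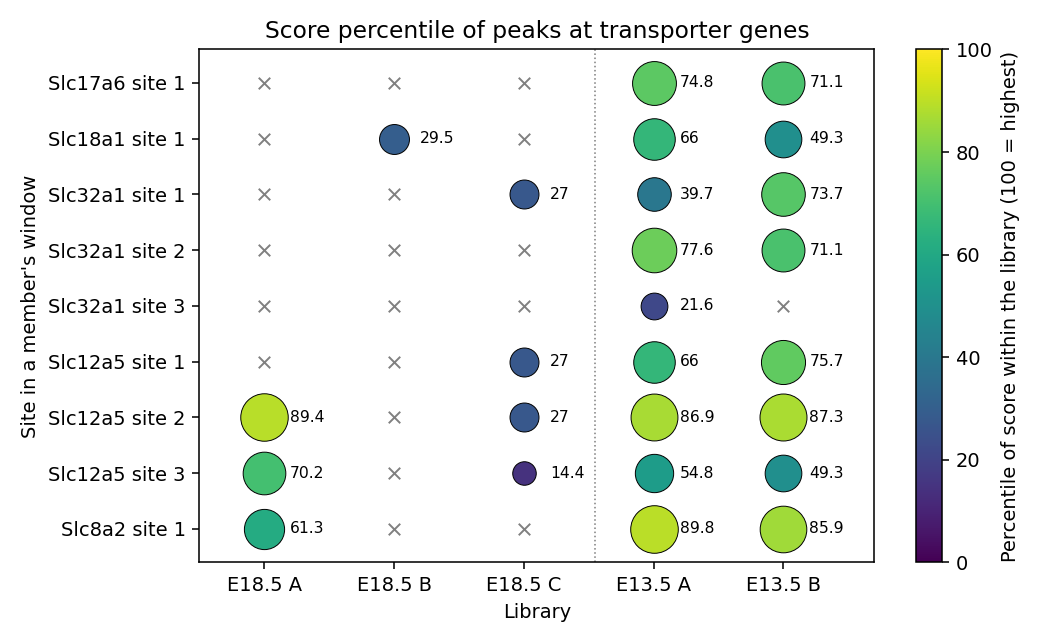
Circles give the score percentile within each library (colour, size and printed value, 100 is the highest) for the 9 sites in the windows of the transporter genes, with E18.5 libraries left of E13.5 libraries and crosses where no peak was called. All 8 reproducible sites were called in both E13.5 libraries at 39.7 or above, and the E18.5 calls ranged from 14.4 in E18.5 C to 89.4 in E18.5 A.

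Of the 8 reproducible E13.5 sites, 6 were called in at least 1 E18.5 library (75%, interval 34.9 to 96.8), against 40.1% of the 1175 other sites. The 2 that were not are Slc17a6 and site 2 of Slc32a1. Called in at least 2 E18.5 libraries were 2 of 8 (25%, interval 3.19 to 65.1), both in Slc12a5, against 20.3% of the other sites, a share close to that background. Calling at E18.5 followed the E13.5 rank over the series, since sites called again made up 8.82%, 13.8%, 34.6%, 55.3% and 90.3% of the 5 classes of E13.5 rank, low to high. In the middle class, 3 of 3 sites of these genes were called again, at Slc18a1, Slc32a1 site 1 and Slc12a5 site 3. In the class above it, 1 of 3 was, Slc12a5 site 1, and in the highest class 2 of 2 were, Slc12a5 site 2 and Slc8a2. The mean E13.5 percentiles of Slc17a6 and of Slc32a1 site 2, the pair not called at E18.5, were thus above those of the 3 called sites of the middle class, although in E13.5 B Slc32a1 site 1 stood above both, at 73.7 against 71.1.

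The sites nearest to the Slc8a2 site in their 5 library percentiles, with 0 for a library without a peak, are named by the gene start closest to them. They were 141304 bp from the start of Sec13 (chr6:113831784-113832386, distance 2.964 percentile points), 22772 bp from 5031439G07Rik (chr15:84795923-84796485, distance 4.728) and 1333 bp from 9930013L23Rik (chr7:91233442-91233938, distance 7.222). All 3 were called in E18.5 A at the same percentile of 61.3 and in both E13.5 libraries. Their best matches to RE1 had 5, 3 and 5 mismatches, so likeness in rank to Slc8a2 did not come with a like element.

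Other genes of the same families and other transmitter transporter genes were taken from a list of 52, of which 50 were in the annotation. A reproducible E18.5 site was found at 3 of 50 (6%), Slc17a9, Slc12a1 and Slc29a4, and a reproducible E13.5 site at 8 of 50 (16%). Both shares stood between those of the 9 genes and those of all genes, which is a description with no test. Slc17a9, the vesicular nucleotide transporter gene, was the single one of the 8 with a peak in all 5 libraries. Its site lay 30834 bp from the start with 2 mismatches and a mean E13.5 percentile of 82.3, and the nearest start was that of Bhlhe23. Slc12a1, the kidney sodium-potassium-chloride cotransporter gene, had a site at -16531 bp from its start (negative distances are upstream) with a percentile of 86.62, and the start of Ctxn2 was nearest. The plasma membrane monoamine transporter gene Slc29a4 had a site at -7287 bp with a percentile of 72.58. So the 3 genes with E18.5 sites had mean E13.5 percentiles above the median of all sites, and for Slc17a9 and Slc12a1 another gene's start was nearer.

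Of the other 5 related genes with a reproducible E13.5 site, Slc6a5, the neuronal glycine transporter gene, had a site 464 bp from its start with a mean E13.5 percentile of 14.97, lower than the mean of any site of the 9 genes that was called in both E13.5 libraries. Slc6a11, a GABA transporter gene, had 2 sites, the better at -43945 bp with a percentile of 59.51. Slc8a3, which encodes another sodium-calcium exchanger, had a site 126811 bp inside the gene with a percentile of 77.28. Slc1a1, a glutamate transporter gene, had a site at -16569 bp with a percentile of 58.29. Slc24a2, a potassium-dependent sodium-calcium exchanger gene, had a site at 8710 bp with a percentile of 49.52, and its best match to RE1 had 5 mismatches. No peak was called in any library in the windows of the plasma membrane transporter genes of dopamine, noradrenaline and serotonin (Slc6a3, Slc6a2 and Slc6a4) or of Slc12a2 and Slc8a1, close relatives of Slc12a5 and Slc8a2.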

How the data were processed

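The authors sequenced single-end 50-bp reads of REST ChIP DNA, aligned them to mm9 (the processing notes also name NCBI36) with Bowtie2 2.2.5 allowing 1 mismatch, filtered them at a MAPQ of at least 10 and ran MACS2 2.1.0 with input DNA as the control. The study's methods state these steps for E13.5, where its own peaks came from pooled reads. The submitters' notes name the same tools and SAMtools for all samples. The deposited lists give peaks per library with a whole-number score of a unit that no source used here states, and their names state duplicate removal and a 10% false discovery rate. The score was only ranked within libraries. Long lists rank peaks among more weak ones, so percentiles of lists of unequal length are on different footings.

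Overlapping entries of 1 library were merged with the highest score kept, and peaks of different libraries sharing at least 1 bp were joined into sites. Genes and starts were those of GENCODE for mm9, and sequence was read from mm9. The letter matrix had 21 positions. Ties at the limit of 226 peaks were broken by position. Python 3.11.15, numpy 2.4.6, scipy 1.17.1 and matplotlib 3.10.9 were used, and the search was tested on simulated data. Stages were compared over libraries by an exact two-sided permutation test. The depth of each library is unknown, as read totals were not used here, and counts were left unscaled.

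The genes, lists and settings were chosen with earlier results of these data known. All 9 genes are named, as are related genes with a reproducible E13.5 site and the 3 sites nearest to the best-ranked site in percentile. Meis3, Atp6v1b2, the related genes without a site and the site beyond the window were named after their values were seen. Alternatives changed the window, the list length, the overlap, the start, the motif search and the libraries.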

Additional observations from a re-analysis of the deposited data

How the results depend on the processing

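In this section the windows of 10 kb and 100 kb also took in the whole gene body, and the window of 5 kb did not. Slc8a2 thus counted within 10 kb through its gene body. The number of genes with a reproducible E18.5 site was 1, but 0 within 5 kb of the start, 2 within 100 kb (4% of all genes), and 0 to 1 without 1 library (0 without E18.5 replicate A or C). At E13.5 the number was 5, also within 100 kb (11.9% of all genes), but 4 within 10 kb (3.21%), 2 within 5 kb of the start and 2 with the 226 highest peaks of each list. It was also 5 without each library in turn, but this is no check of it. E18.5 libraries do not enter the E13.5 rule, and without 1 E13.5 library a call in the other was enough. At E18.5, dropping a library of that stage asked for a call in both that were left. The difference in peaks per library, -5.83, became 0.333 with the 226 highest peaks and otherwise kept its sign. The difference in genes per library, -3.33, was -0.667 with the 226 highest peaks (exact permutation p = 1). The median E13.5 percentile of the best sites, 74.36, was 80.03 within 10 kb, 65.32 within 5 kb, 87.47 with the 226 highest peaks and 73.74 to 77.61 without 1 library. RE1 matches were at 7 of 8 sites, at 8 with 5 mismatches allowed (81.6% of other sites) or by the matrix score (79.7%), at 2 of 2 with the 226 highest peaks and at 1 of 2 within 5 kb. They were at 7 of 8 with 3 mismatches allowed (58.1% of other sites) and at 7 of 9 without E13.5 replicate B. Either half-site alone, with at most 1 mismatch, was found at 7 of 8 sites, and at 91.3% of other sites. Both half-sites, each with at most 1 mismatch, were found at a spacing other than 2 bases, up to 25, at 0 of 8 (10.6% of other sites). At any such spacing, a setting chosen after seeing the data, they were found at 1 of 8, the usual element of Slc8a2 (33.5%). Sites called again at E18.5 were 6 of 8, 2 of 2 with the 226 highest peaks, and 4 to 6 without 1 library. Related genes with an E13.5 site were 8 of 50, but 5 within 10 kb (3.21% of all genes), 1 within 5 kb (1.56%), 13 within 100 kb (11.9%) and 0 with the 226 highest peaks. The 1 of 50 within 5 kb was near the share of all genes. For the 226 highest peaks no share of all genes was taken. Smaller windows and shorter lists hold fewer peaks by construction. A replicate block on the letters A and B gave differences of -3.5 genes and -6.5 peaks (exact permutation p = 0.5, the smallest 2 pairs allow). The letters are only names of different embryos, so the samples are not pairs, and with 2 shared letters no check of pairing was made. Counts stayed within 1.5 times and differences kept their sign under the remaining alternatives (an overlap of 50% of the shorter peak, any transcript start, 200 or 1000 bp searched). Without read totals, weak E18.5 sites cannot be told from sites without binding.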
